A study of Homo sapiens with 6 samples.

Results

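CDK1, its A- and B-type cyclins and the proteins that switch the kinase on and off were read in 76N cells, labelled as normal human mammary epithelial cells. The 10 genes were the kinase gene CDK1, the cyclin genes CCNA2, CCNB1 and CCNB2, the phosphatase genes CDC25B and CDC25C, the inhibitory kinase genes WEE1 and PKMYT1, and the small-subunit genes CKS1B and CKS2. They were found as all probe sets whose only gene symbol in the platform annotation is one of these names, which gave 20 of the 54675 probe sets on the array, and 10 of the 19775 genes read by such a probe set. RNA was taken from cultures transfected with an siRNA against Ecd (n = 3 arrays) or with a control siRNA (n = 3 arrays), both grown in DFCI-1 medium at 37C. The siRNA targets ECD, named after ecdysoneless, its Drosophila relative. All cultures were of 1 cell line, the labels call them biological replicates, and the sequence of the siRNA, its amount and the hours of exposure are unknown here. The question addressed is how the transcripts of this kinase module differ when Ecd is knocked down.

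CDK1 is the kinase that drives cells into mitosis. It is inactive until it binds a cyclin, cyclin A2 from S phase onwards and cyclins B1 and B2 in G2 and mitosis, and the Cks proteins dock the complex onto substrates that are already phosphorylated. WEE1 in the nucleus and the membrane-bound kinase encoded by PKMYT1 hold the complex in check by phosphorylating the ATP-binding pocket of CDK1, and the CDC25 phosphatases remove those phosphates. Many genes of this group are transcribed mainly in G2, from promoters that pair CCAAT boxes, the sites of the factor NF-Y, with a cell cycle homology region (CHR), where MuvB complexes with B-MYB and FOXM1 act.

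The promoters are shown to see which of the 10 genes hold letters of these elements. RefSeq promoter sequences (GRCh38.p14) matched 8 of the 10 genes, and WEE1 and PKMYT1 had no entry in that table. The lines give the 100 bases before an annotated start, 5′ to 3′ on the gene's strand, with CCAAT (or its complement ATTGG) and the CHR letters TTTGAA or TTCGAA (or TTCAAA) in capitals. For CDK1 (2 annotated starts), CDC25B (4) and CDC25C (4) the start whose 100 bases hold both kinds of letters is shown.
CDK1, chr10:60778378-60778477, plus strand: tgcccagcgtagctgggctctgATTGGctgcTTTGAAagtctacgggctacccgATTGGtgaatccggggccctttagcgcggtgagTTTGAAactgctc
CCNA2, chr4:121823884-121823983, minus strand: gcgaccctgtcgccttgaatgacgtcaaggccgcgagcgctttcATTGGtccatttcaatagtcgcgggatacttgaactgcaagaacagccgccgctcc
CCNB1, chr5:69167050-69167149, plus strand: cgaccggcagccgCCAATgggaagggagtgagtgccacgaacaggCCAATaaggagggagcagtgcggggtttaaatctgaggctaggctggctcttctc
CCNB2, chr15:59105046-59105145, plus strand: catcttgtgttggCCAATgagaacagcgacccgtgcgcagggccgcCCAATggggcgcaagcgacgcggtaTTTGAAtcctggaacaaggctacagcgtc
CDC25B, chr20:3796210-3796309, plus strand: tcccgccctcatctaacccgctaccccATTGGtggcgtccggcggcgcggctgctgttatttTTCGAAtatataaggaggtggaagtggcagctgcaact
CDC25C, chr5:138331805-138331904, minus strand: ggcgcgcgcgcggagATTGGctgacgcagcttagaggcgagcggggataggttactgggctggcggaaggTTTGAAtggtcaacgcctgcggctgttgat
CKS1B, chr1:154974581-154974680, plus strand: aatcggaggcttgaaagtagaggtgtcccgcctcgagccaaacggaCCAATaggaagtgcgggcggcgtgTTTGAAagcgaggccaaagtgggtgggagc
CKS2, chr9:89311095-89311194, plus strand: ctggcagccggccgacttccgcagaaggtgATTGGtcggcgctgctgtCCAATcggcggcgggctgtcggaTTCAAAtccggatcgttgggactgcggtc

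All 8 genes held CCAAT on either strand within the 100 bases before at least 1 annotated start, against 21.61% of the 27305 genes in the table. The CHR letters TTTGAA or TTCGAA, on either strand, lay in that window of 6 of the 8 genes, against 6.14% of all genes. Both kinds of letters lay before the same start in those 6 genes, against 1.25% of all genes. A gene with more annotated starts has more windows to match. Counted by start, 6 of the 15 starts of the 8 genes held both kinds, against 0.99% of all 35116 starts. In CCNB2, CKS1B and CKS2 the CHR letters began at position -29, -30 and -29 from the start, and 20, 19 and 18 bases separated them from the nearest CCAAT box upstream. The other genes with CHR letters did not have this spacing. The shortest gap was 4 bases in CDK1 (CHR letters at -69 and -13), 30 in CDC25B (at -38) and 50 in CDC25C (at -30). CCNA2 and CCNB1 held CCAAT boxes but neither CHR word in the 300 bases from 250 before to 50 after the start. Only TTTGAA and TTCGAA were searched, so a CHR with other letters would be missed, and its absence from these genes is not shown. Letters of E2F sites, searched as TTTCCCGC, TTTGGCGC, TTTCGCGC and TTTGCCGC on either strand, were found in 1 of the 8 genes in the 300 bases, CDK1, against 3.99% of all genes. None of the words searched overlapped another in the promoters shown. These matches describe the letters and were not tested as binding sites.

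**Figure D1:**
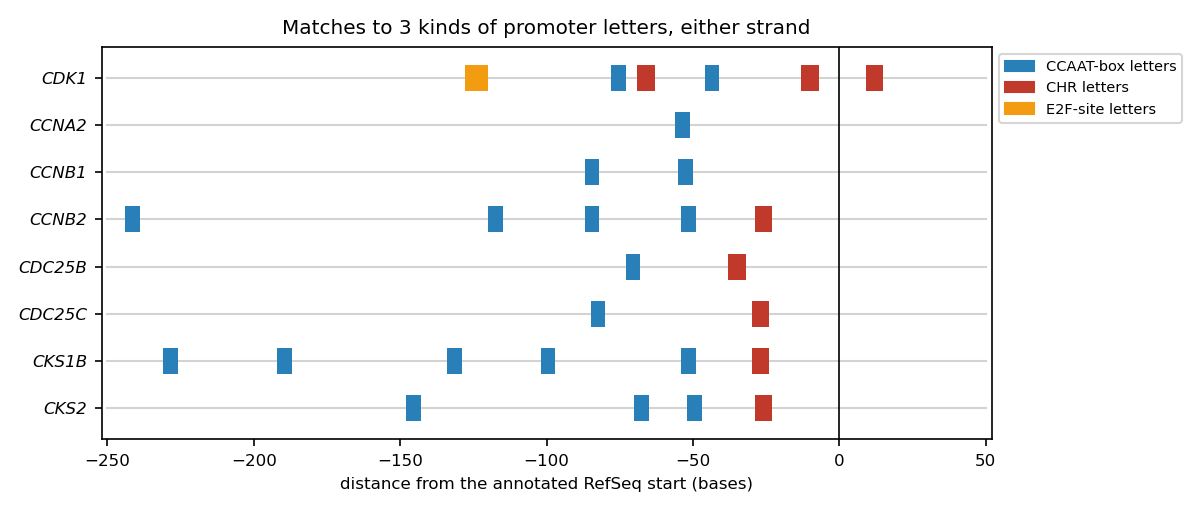
Positions of CCAAT-box letters (blue), CHR letters (red) and E2F-site letters (orange) on either strand, with the distance in bases from the annotated RefSeq start on the horizontal axis and 1 start for each of the 8 genes down the page. In CCNB2, CKS1B and CKS2 the CHR letters sit at -29 or -30 with a CCAAT box 18 to 20 bases upstream. The shortest such gap is 4 bases in CDK1, 30 in CDC25B and 50 in CDC25C.

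The targeted transcript had signals of 588.9, 599.8 and 542.5 with Ecd siRNA and 1076.6, 1011.4 and 1007.2 with control siRNA. It was lower in the cultures given the Ecd siRNA, at 55.9% of the control mean (log2 change -0.82, limma adjusted p = 0.000172, two-sided exact permutation p = 0.1, the smallest that 3 against 3 arrays allow). Median signals were 134.6 to 146.7 in the Ecd siRNA arrays and 128.7 to 147.6 in the control arrays. The 3′ to 5′ signal ratio of the GAPDH control probe sets, a sign of RNA integrity, was 0.974 to 1.003 with Ecd siRNA and 0.974 to 0.980 with control siRNA. Of 13 written mammary epithelial markers 9 had a single-symbol probe set, and all but KRT19 lay above the filter on low signals (a mean log2 level in the upper 60% of probe sets, at a signal of 84.6). Their summed signals were 84109 to 92945 with Ecd siRNA and 80806 to 87009 with control siRNA. KRT18 was lower (-0.52) and CDH1 (0.25) and ITGB4 (0.29) were higher past the threshold. Summed signals of the 10 fibroblast markers were 7055 to 7907 with Ecd siRNA and 4175 to 4779 with control siRNA, and 5 of the 10, COL3A1, PDGFRA, PDGFRB, LUM and POSTN, were under the filter. Of these fibroblast markers FAP (1.03) and COL1A1 (0.52) were higher past the threshold and 0 were lower, while COL1A2 was at -0.17 and THY1 at -0.32. FAP made most of the difference, with means of 5334 with Ecd siRNA and 2610 with control siRNA, and the other 9 summed to 2038 to 2252 with Ecd siRNA and 1787 to 2169 with control siRNA, which overlap. Summed endothelial markers (5, of which 2 were above the filter) were at 790.8 to 897.6 with Ecd siRNA and 900.4 to 998.5 with control siRNA, and summed leukocyte markers (4, of which 1 was above it) at 152 to 248.1 with Ecd siRNA and 274.8 to 421.4 with control siRNA. No adipocyte marker was above the filter. The part of other cell types in the results below was not tested.

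The kinase, its 3 cyclins and most of its regulators fell together after Ecd siRNA. Of the 10 genes, 9 were lower past the threshold and 0 were higher, while WEE1 did not pass. The 10 genes were chosen with earlier results of these data known, so their counts beside the shares of all genes are description and no test. Across all 14603 genes tested, 21.1% passed the threshold, 11% lower and 10.1% higher, where a call is a Benjamini-Hochberg adjusted p under 0.05 from limma fitted over all of them. A call together with a log2 change under -1 was reached by 8 of the 10 genes, against 2.16% of all tested genes. The 10 genes had a median log2 change of -1.71, and the median of all tested genes was 0.0078. In all 10 the 3 Ecd siRNA arrays lay below the 3 control arrays, as they did in 18.3% of tested genes. In RNA from whole cultures, fewer cells in the G2 and mitotic phases and less of a transcript in each cell cannot be told apart.

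**Figure D2:**
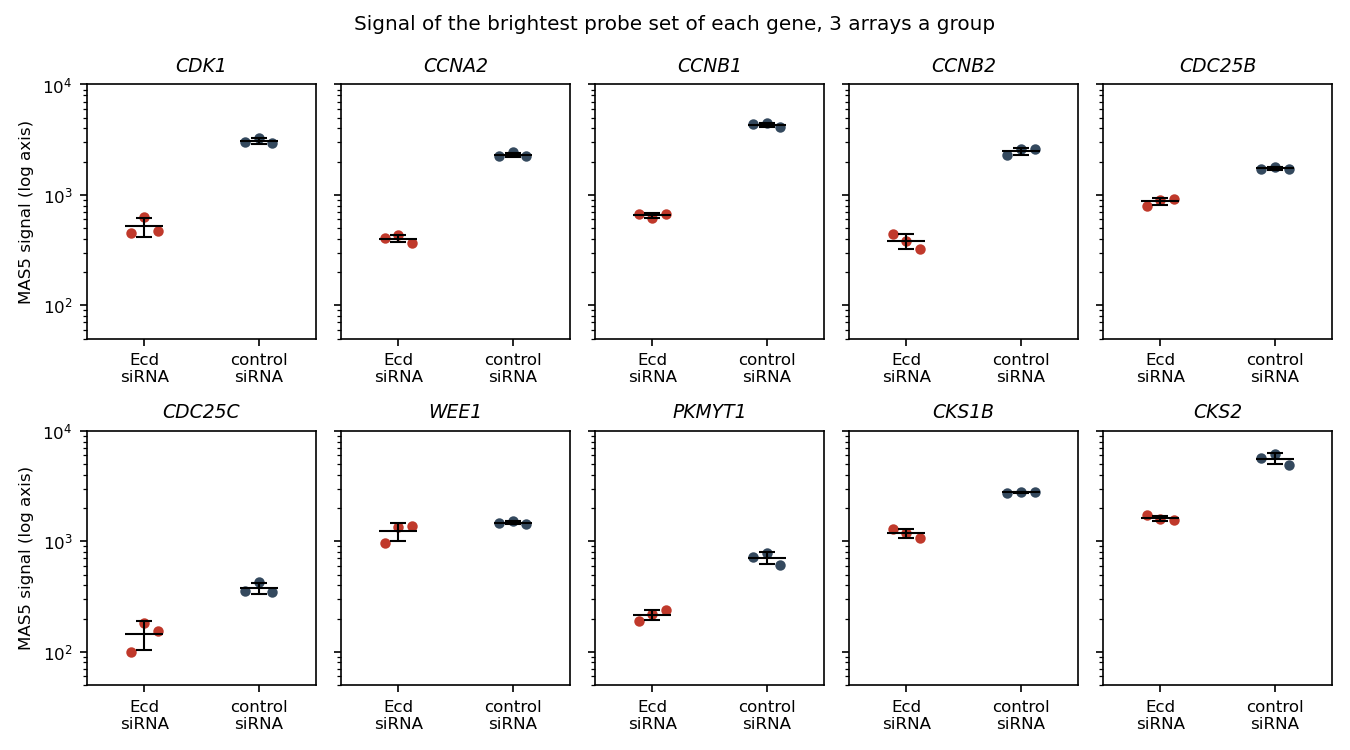
MAS5 signal on a log axis for the brightest probe set of each of the 10 genes, with the 3 Ecd siRNA arrays (red) left of the 3 control siRNA arrays (dark), horizontal bars for the means and whiskers for the SD. The groups are apart in every panel, closest for WEE1, where 1376.2 is the highest Ecd siRNA array and 1427.4 the lowest control array.

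CDK1, the kinase itself, had signals of 452.8, 636.2 and 466.2 with Ecd siRNA, against 3027.7, 3297.7 and 2965.6 with control siRNA. Every Ecd siRNA array was far below every control array, and replicate 2 was the highest in both groups. Ecd siRNA arrays averaged 518.4 ± 102 and control arrays 3097 ± 177 (SD, n = 3 each), leaving 16.7%. The log2 change was -2.56 (SE 0.13, limma adjusted p = 5.18e-07), computed on log2(signal + 16), where dim transcripts appear to change less than they do. It was the fall with rank 31 among all tested genes.

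CDK1 was read by 4 probe sets, of which the brightest, 203213_at, gave those values. Probe set 210559_s_at had 670.3, 593.6 and 517.1 with Ecd siRNA and 2690.3, 3104 and 2089.5 with control siRNA, a log2 change of -2.11. The values of 203214_x_at were 543, 438.7 and 396.4 with Ecd siRNA and 1783.2, 1761.4 and 1813.2 with control siRNA, a change of -1.93. Both passed the threshold in a fit over all 27009 single-symbol probe sets above the filter. In that fit 8.62% were lower and 8.3% higher past the threshold. The suffixes _s_at and _x_at mark probe sets that may bind more than 1 transcript, and whether this bears on the smaller falls was not tested. A dim probe set, 231534_at, lay under the filter at 29.7, 67.8 and 17.4 with Ecd siRNA and 187.9, 154.7 and 197.7 with control siRNA, again without overlap.

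All 3 cyclin genes fell. CCNB1, which encodes the cyclin that accompanies CDK1 into the nucleus at mitotic entry, had signals of 671.1, 613.1 and 674.3 with Ecd siRNA, against 4359.1, 4436.3 and 4080.5 with control siRNA. The arrays within each group were close and the groups were far apart, with 15.2% of the control mean left. Its log2 change of -2.69 (SE 0.08) was the largest fall of the 10 genes (limma adjusted p = 7.17e-08), and 22 of the 14603 tested genes fell further. A separate probe set, 228729_at, gave 261.5, 282.1 and 257.3 with Ecd siRNA and 1419.3, 1549.5 and 1622.3 with control siRNA, a change of -2.45.

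CCNB2, the gene of the B-type cyclin found mainly at the Golgi, had 439.7, 379.8 and 325.4 with Ecd siRNA and 2293.3, 2602.6 and 2607 with control siRNA. Its groups did not overlap, and 15.3% of the control mean was left, a log2 change of -2.67 (SE 0.12, limma adjusted p = 2.9e-07). A pair of dim probe sets of CCNB2 did not show this. Probe set 232768_at, at 104.7, 113 and 93.3 with Ecd siRNA and 170.4, 120.4 and 80.1 with control siRNA, overlapped between groups and did not pass (-0.17, adjusted p = 0.753). The other, 232764_at, lay under the filter at 21.3, 43.4 and 74.3 with Ecd siRNA and 20.7, 19.8 and 15.3 with control siRNA. Its groups did not overlap, and the Ecd siRNA arrays were the higher ones. When all 3 probe sets were averaged, CCNB2 changed by -0.69 and still passed (adjusted p = 0.0184).

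CCNA2, which encodes the cyclin of S phase and G2, had signals of 409.8, 429.5 and 367.9 with Ecd siRNA, against 2261.6, 2436.7 and 2234.4 with control siRNA. The groups stood apart with little spread inside them, at 402.4 ± 31.5 and 2311 ± 110 (SD, n = 3 each). The log2 change was -2.48 (SE 0.10, limma adjusted p = 1.13e-07). In its second probe set, 203418_at, the change was -2.76, with 14.1% of the control mean left.

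Both small-subunit genes fell. CKS2 had 1724.2, 1587.8 and 1569.9 with Ecd siRNA and 5750.7, 6200.5 and 4939.4 with control siRNA. The control arrays were spread more widely than the Ecd siRNA arrays, but the groups did not overlap, and 28.9% of the control mean was left (log2 change -1.78, SE 0.09, limma adjusted p = 6.7e-07). CKS1B, whose protein also serves the ligase that destroys the inhibitor p27, had 1291.4, 1202.7 and 1076.8 with Ecd siRNA and 2740.3, 2814.7 and 2773.7 with control siRNA. Here 42.9% of the control mean was left, and the log2 change was -1.21 (SE 0.09, limma adjusted p = 4.96e-06). Each was read by 1 probe set, of the _s_at kind, and binding of 1 gene's transcript to the other's probes was not tested.

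Both phosphatase genes fell, and neither fell as far as CDK1. CDC25B, which acts early at centrosomes, had signals of 796.5, 904.9 and 924.8 with Ecd siRNA, against 1699.2, 1784 and 1730.8 with control siRNA. The groups were separate, at 875.4 ± 69.1 and 1738 ± 42.9 (SD, n = 3 each), and 50.4% was left (log2 change -0.98, SE 0.09, limma adjusted p = 2.98e-05). CDC25B was read by 1 probe set, of the _s_at kind. CDC25C, the phosphatase held by 14-3-3 proteins in interphase, had 99.1, 183.9 and 155.3 with Ecd siRNA and 355.8, 431.1 and 347.3 with control siRNA. It was the dimmest of the 10 and replicate 1 was the lowest Ecd siRNA array, with a log2 change of -1.31 (SE 0.22, limma adjusted p = 0.00177).

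A pair of further CDC25C probe sets was under the filter by mean log2 level. Probe set 217010_s_at had 28.3, 31.2 and 33.3 with Ecd siRNA and 161.4, 157.5 and 98.1 with control siRNA, which did not overlap. Probe set 216914_at had 38.9, 38 and 41.5 with Ecd siRNA and 83.4, 37 and 59.1 with control siRNA, and the groups overlapped. It is the only CDC25C probe set without an _s or _x suffix, so with such probe sets preferred CDC25C was not tested.

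Of the inhibitory kinase genes PKMYT1 fell and WEE1 did not pass. PKMYT1 had 191.5, 219.8 and 236.7 with Ecd siRNA and 728.3, 780.5 and 610.7 with control siRNA. Its groups did not overlap, 30.6% of the control mean was left, and the log2 change was -1.64 (SE 0.14, limma adjusted p = 2.18e-05). PKMYT1 was read by 1 probe set, an _x_at one.

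WEE1 had signals of 969.9, 1354.9 and 1376.2 with Ecd siRNA and 1477.5, 1521.3 and 1427.4 with control siRNA. Replicate 1 was well below the other Ecd siRNA arrays, which came close to the controls. The log2 change was -0.27 with a 95% interval of -0.56 to 0.01, so WEE1 missed the threshold (limma adjusted p = 0.172). Leaving out that replicate gave -0.11 (adjusted p = 0.445). A second probe set, 215711_s_at, had 839, 969.4 and 1005.3 with Ecd siRNA and 1309.8, 1331.6 and 1127.4 with control siRNA, and it fell in the fit over probe sets (-0.42, adjusted p = 0.0261). The call of 215711_s_at was lost in 5 of 15 alternative settings, without the intensity trend and without Ecd siRNA replicate 1 or 2 or control replicate 1 or 2 (adjusted p of 0.0546 to 0.103).

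**Figure D3:**
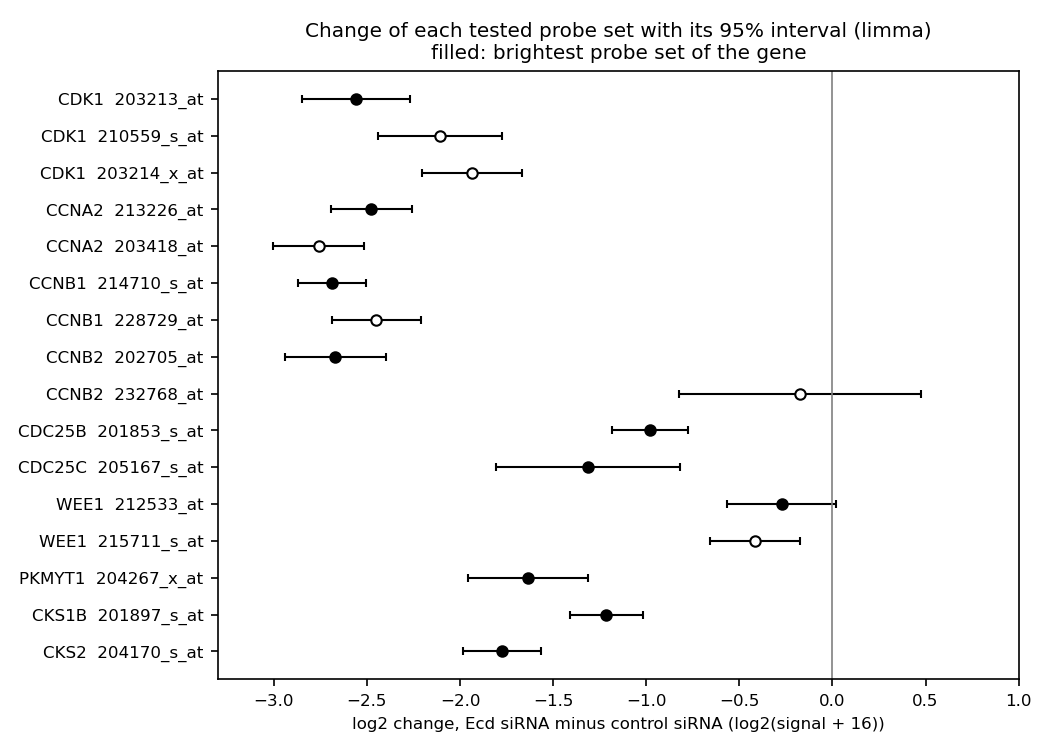
Log2 change, Ecd siRNA minus control siRNA, of the 16 probe sets of the 10 genes that lay above the filter. The 95% intervals are from limma fitted over all single-symbol probe sets above the filter, and filled points mark the brightest of each gene. The intervals of 14 lie wholly below 0, and those of CCNB2 232768_at and WEE1 212533_at cross it.

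In all, 16 of the 20 probe sets were above the filter. Of these, 14 were lower past the threshold and 0 were higher, against 8.62% lower of all single-symbol probe sets above the filter. The exceptions were 232768_at of CCNB2 and 212533_at of WEE1. In order of the gene changes, CCNB1 (-2.69), CCNB2 (-2.67), CDK1 (-2.56) and CCNA2 (-2.48) had 95% intervals that overlapped. The next gene, CKS2, had an interval of -1.98 to -1.57, apart from that of CCNA2 at -2.69 to -2.26. From CKS2 through PKMYT1, CDC25C and CKS1B to CDC25B each interval overlapped the next. WEE1 followed apart from CDC25B, whose interval was -1.18 to -0.78.

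Whether a gene fell by a different amount from CDK1 was tested on its log2 value minus that of CDK1 in the same array. The cyclin genes did not pass, with differences of -0.13 for CCNB1 (95% interval -0.56 to 0.30), -0.11 for CCNB2 (-0.54 to 0.32) and 0.08 for CCNA2 (-0.35 to 0.51). The other 6 genes passed, all with a smaller fall than CDK1 or, for WEE1, none that passed. Their differences were 0.78 for CKS2, 0.92 for PKMYT1, 1.24 for CDC25C, 1.34 for CKS1B, 1.58 for CDC25B and 2.29 for WEE1. Nearly every tested gene differed from CDK1 in that direction (99.6% of 14602, against 0.0685% that fell further), so these calls say only that the 6 did not fall as far. CDK1's own spread enters every such difference, and pooling it over genes treats it as well known. With each gene's own spread alone, an alternative chosen after the data were seen, the same 6 passed, with adjusted p of 0.000427 for WEE1 to 0.0142 for CKS2, and 99.2% of all genes passed.

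The choice of probe sets, for CDK1 and for the other genes, moved these differences. With the mean of all probe sets of each gene CDK1 changed by -2.14, CKS2 no longer differed from it (0.36, adjusted p = 0.0609), CCNB1 (-0.43, adjusted p = 0.0307) and CCNA2 (-0.48, adjusted p = 0.0174) had fallen further than it, and CCNB2, averaged with its dim probe sets, less far (1.44).

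**Figure D4:**
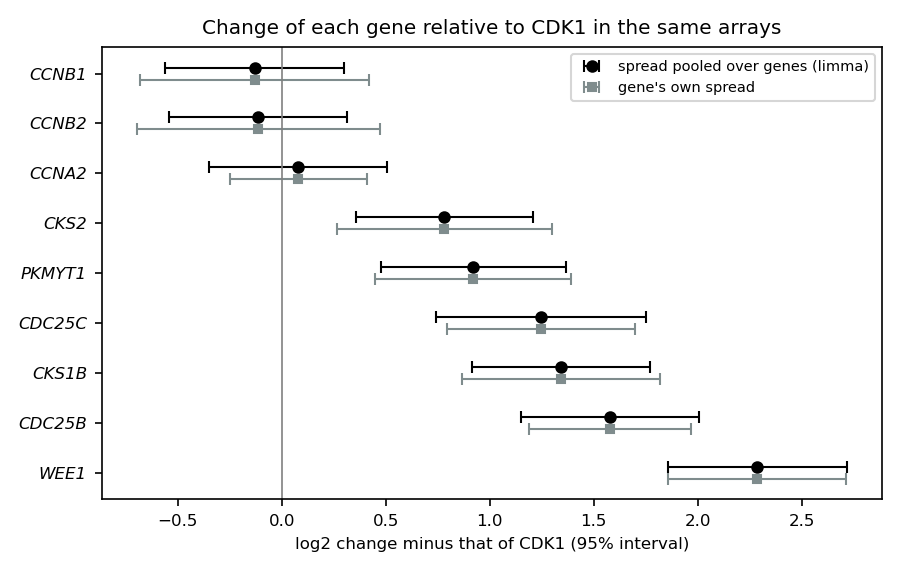
Log2 change of each gene minus that of CDK1 within the same arrays, with 95% intervals from the spread pooled over genes (black circles) and from each gene's own spread (grey squares). The 3 cyclin genes lie around 0, and the other 6 lie above it, from 0.78 for CKS2 to 2.29 for WEE1.

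The Ecd siRNA arrays had no common order over the 10 genes, with replicate 1 the highest for 3 genes, replicate 2 for 3 and replicate 3 for 4. In the control group replicate 2 was the highest for 9 of the 10 genes and replicate 3 the lowest for 7. Deviations of single genes from their group means ran from -0.46 to 0.34 on the log2 scale, both in CDC25C with Ecd siRNA, and from -0.20 to 0.19 in the control arrays. Ecd siRNA replicate 1 was the lowest of its group for CDK1, CDC25B, CDC25C, WEE1 and PKMYT1, and the highest for CCNB2, CKS1B and CKS2. These orders are those of the brightest probe set of each gene, and other probe sets could differ. In CDK1, replicate 1 was the highest Ecd siRNA array of 210559_s_at and 203214_x_at, while in WEE1 it was again the lowest of 215711_s_at.

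The genes whose log2 values over the 6 arrays came nearest to those of CDK1, after each was centred on its own mean, were PBK, BUB1, KIF4A, SHCBP1 and PRC1. The root-mean-square difference to CDK1 was 0.08 for PBK and 0.12 for PRC1, with log2 changes of -2.64 for PBK, -2.41 for BUB1, -2.41 for KIF4A, -2.71 for SHCBP1 and -2.50 for PRC1. BUB1 encodes a spindle checkpoint kinase, KIF4A a mitotic kinesin and PRC1 a cross-linker of the spindle midzone. Among the 10 genes CCNA2 came nearest to CDK1, at rank 7 of all tested genes, followed by CCNB1 at 26, CCNB2 at 27 and CKS2 at 89, while WEE1 was at 2430. The measure is set largely by the size of the difference between the groups.

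Around CDK1, 51 further genes were listed in 9 groups by function, and 50 were above the filter. Of these, 18 were lower past the threshold, 1 was higher and 31 did not pass, with a median log2 change of -0.23, beside 0.0078 for all tested genes. Across all tested genes 11% were lower and 10.1% higher past the threshold, and these shares belong beside every list count below. In such short lists 1 or 2 calls are not read as a result about the list. The lists too were chosen with earlier results of these data known, so their counts are description and no test. Falls of more than 2 on the log2 scale were found among the mitotic activators, the cyclin destruction genes, the G2/M transcription factors and, with CDKN3, the other cyclins and phosphatases.

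The 3 genes that act upstream of CDC25 and WEE1 at mitotic entry all fell. PLK1, the Polo kinase, changed by -2.88 (limma adjusted p = 1.32e-06), AURKA, the Aurora A kinase, by -2.11, and BORA, its cofactor, by -1.11. The AURKA call was lost in a probe set without the _s or _x suffix (-0.62, adjusted p = 0.273). Of 5 other cyclins and phosphatases 2 fell and 0 rose. CDKN3, a phosphatase gene whose product acts on the activation loop of CDKs, changed by -2.50, and CDC25A, the third CDC25 gene, by -1.39 (adjusted p = 0.00128). CCNF (-0.90, adjusted p = 0.0527), CCNA1 (0.33, adjusted p = 0.0801) and CCNB3 (0.15, adjusted p = 0.745) did not pass.

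Of 7 genes for the destruction of cyclins and WEE1, 4 fell and 0 rose. CDC20, the mitotic activator of the anaphase-promoting complex, changed by -2.82 (limma adjusted p = 1.08e-07), the ubiquitin-conjugating enzyme genes UBE2C by -2.31 and UBE2S by -1.60, and FBXO5, the gene of an inhibitor of that complex, by -2.44. FZR1, the interphase activator (0.14, adjusted p = 0.477), and the adaptor genes BTRC (0.36, adjusted p = 0.0526) and FBXW11 (0.19, adjusted p = 0.134), whose proteins mark WEE1 for destruction, did not pass.

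Among the transcription factors of G2/M genes, 2 of 9 tested fell and 0 rose. FOXM1 had signals of 38.5 ± 18.7 with Ecd siRNA and 911.9 ± 169 with control siRNA (SD, n = 3 each). Its log2 change was -4.12 (limma adjusted p = 1.93e-06), and MYBL2, the B-MYB gene, changed by -2.58 (limma adjusted p = 7.79e-05). The Ecd siRNA mean of FOXM1 lay under the filter signal, so the size of its fall depends on the pseudocount, at -4.61 with 1 and -3.25 with 64. The MuvB genes LIN9, LIN37, LIN52 and RBBP4 and the NF-Y genes NFYA, NFYB and NFYC did not pass, with changes of -0.45 to 0.12. These were named, after their values were seen, because the letters searched above are those such factors are known to bind. LIN54, the MuvB subunit that binds CHR letters, was under the filter and was not tested.

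In the Greatwall pathway, which restrains the phosphatase PP2A-B55 in mitosis, 2 of 6 genes fell and 0 rose. ENSA changed by -0.52 and MASTL, the Greatwall kinase gene, by -0.50, while PPP2R2D (-0.62, adjusted p = 0.0522), PPP2CA (-0.24), ARPP19 (-0.090) and PPP2R2A (-0.039) did not pass. The kinase that phosphorylates the activation loop of CDK1 had 1 of 3 genes lower, CCNH (-0.38, limma adjusted p = 0.00393), while MNAT1 was at -0.36 (adjusted p = 0.0501) and CDK7 at -0.0031 (adjusted p = 0.988). Of 4 CDKs of other phases or roles, CDK2 (-0.90) and CDK4 (-0.41) fell and CDK6 (-0.21, adjusted p = 0.156) and CDK5 (0.35, adjusted p = 0.0739) did not pass. Averaging its probe sets ended the call of CDK2 (adjusted p = 0.161).

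Of 9 genes for checkpoint kinases and 14-3-3 proteins, CHEK1 (-0.88, limma adjusted p = 0.000171) and ATR (-0.29, adjusted p = 0.0367) fell and 0 rose. The ATR call held in 8 of 17 alternative settings. It was lost without Ecd siRNA replicate 1 or 2 and without any 1 control replicate (adjusted p of 0.0659 to 0.146), and averaging its probe sets turned it to 0.091 (adjusted p = 0.773). Of 4 CDK inhibitor genes, GADD45A rose (0.34, adjusted p = 0.00839), a call that was lost without the intensity trend (adjusted p = 0.0603). CDKN1A, the p21 gene, at 0.17 (adjusted p = 0.149), CDKN1B, the p27 gene, at 0.06 (adjusted p = 0.685) and CDKN1C, at 0.85 (adjusted p = 0.088), did not pass. Without Ecd siRNA replicate 2 CDKN1A was at 0.25 and passed (adjusted p = 0.0392).

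**Figure D5:**
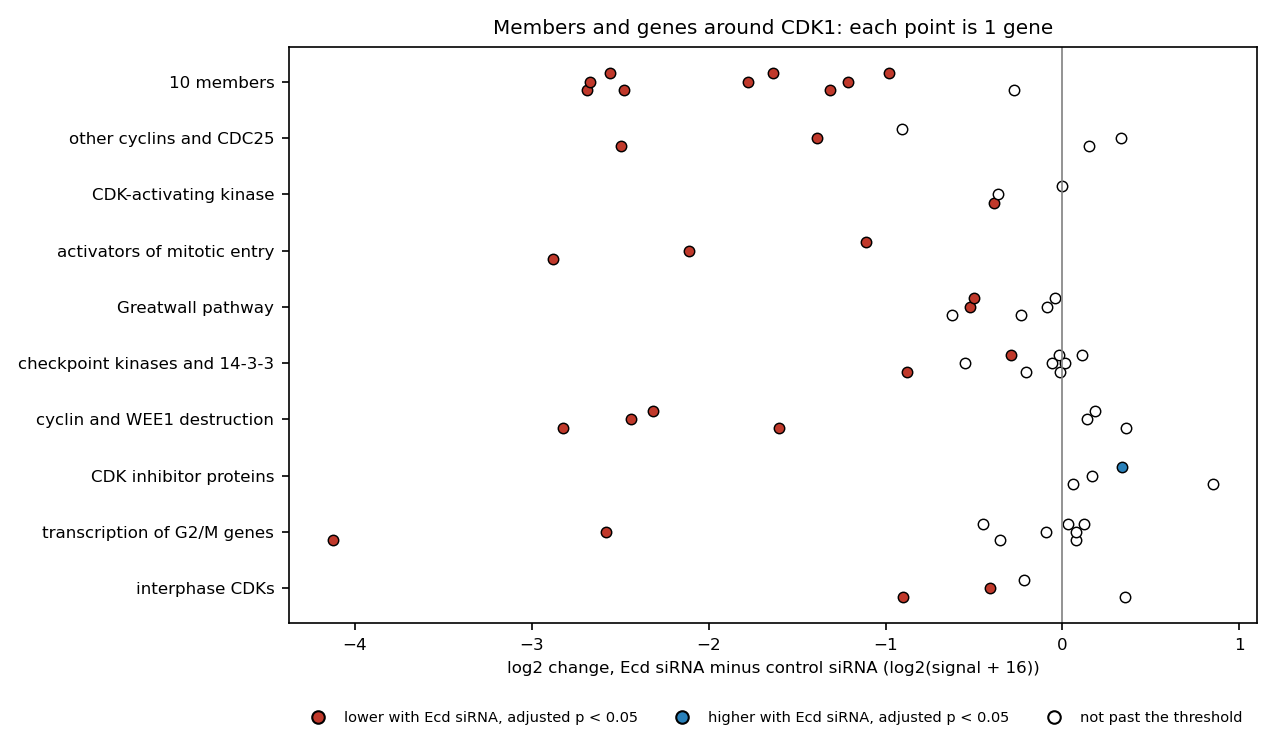
Log2 change, Ecd siRNA minus control siRNA, of the 10 genes (top row) and of the 50 tested genes around CDK1, 1 point a gene, with red for lower and blue for higher past the threshold and open points for genes that did not pass. The red points past -2 lie in the top row and among mitotic activators, cyclin destruction and G2/M transcription. In the row of other cyclins and CDC25 the only point past -2 is CDKN3. The only blue point is GADD45A at 0.34.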

How the data were processed

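Total RNA of 6 cultures of 76N cells was hybridised to 1-colour Affymetrix arrays, 1 per culture, and groups and replicate numbers came from the sample titles. The deposited values are linear intensity readings, MAS5 signals per the submitters' processing notes, whose version is not given in the sources used here. Each array had the same trimmed mean (499.94, over percentiles 2 to 98). This common scaling hides any shift of the whole transcriptome. No detection calls were used here.

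Names came from GEO's annotation of the platform, in which 41091 of 54675 probe sets have 1 symbol. Each gene was read by its brightest such probe set and tested if that lay in the upper 60% by mean log2 level (signal 84.6). Values were log2(signal + 16), fitted in limma 3.58.1 (lmFit, eBayes with intensity trend) under R 4.3.3 without covariates and adjusted by Benjamini-Hochberg. Probe sets were fitted in the same way over all single-symbol probe sets above the filter, and differences to CDK1 over all other tested genes. The fits were tested on simulated data. Named genes were the 10 genes with every probe set, ECD, the 5 genes nearest to CDK1, up to 3 called members of each pathway list, the members that complete a count of 5 or fewer, and FOXM1, CDC25A, CDKN1A and CHEK1. Members and lists were chosen with earlier results of these data known. P-values measure the spread between 6 cultures of 1 line, whose number limits the precision. Alternatives were pseudocounts of 1 and 64, quantile and median scaling, other filters, other probe set choices, no trend, array weights, a replicate block and each array left out.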

Additional observations from a re-analysis of the deposited data

How the results depend on the processing

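The 9 falls among the 10 genes, and the missing call of WEE1, stayed on their side of the threshold in all 17 alternative settings, except that CDC25C was not tested with probe sets without _s or _x preferred, which left 8. CDC25B, PKMYT1, CKS1B and CKS2 had 1 probe set each, so the other probe set choices could not change their values. Calls over all genes were 1163 to 1714 lower and 1043 to 1587 higher. Of the further genes around CDK1, 16 to 22 were lower. The count of higher ones, 1, became 2 with quantile normalization, the filter at the upper 40%, the mean of probe sets, array weights or the replicate block, 0 without the intensity trend, and 1 to 2 on leaving out an array. Relative to CDK1, CCNB1 turned to 0.11 with probe sets without _s or _x and 0.014 with array weights, and ran from -0.24 to 0.065 on leaving out an array. CCNB2 turned to 1.44 and CCNA2 to -0.48 with the mean of probe sets. On leaving out an array they ran from -0.30 to 0.038 and from -0.020 to 0.19. The dim CCNB2 probe set 232768_at ran from -0.42 to 0.060 on leaving out an array, and ATR turned to 0.091 with the mean of probe sets. The causes were not tested. The array weights were estimated without full convergence. Samples of the same number correlated at -0.009, 0.079 and 0.152 in their deviations from the group means. Ecd siRNA replicates 2 and 3 correlated best with the control of their own number, and replicate 1 with control replicate 2 (0.029). These low correlations do not settle whether the numbers are pairs, and the main fit left them unpaired. With the replicate block 3277 genes were called, against 3075 without it, and the same 9 of the 10 genes fell. With 3 arrays a group and no detection calls, dim probe sets give no firm size of change.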
